A study of Mus musculus with 90 samples.

Results

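The set examined was 36 mouse genes that act when cells run short of amino acids or accumulate unfolded protein in the endoplasmic reticulum (ER). They were taken by symbol from a list that joins genes of amino acid supply driven by the transcription factor ATF4 with ER chaperones, and all 36 were found among the 55011 symbols of the count table. By role they were 4 transcription factors or regulators, 5 serine and one-carbon enzymes, 3 asparagine and proline enzymes, 3 amino acid transporters, 6 other ATF4-dependent effectors, 10 ER chaperones and co-chaperones, 3 protein disulfide isomerases and 2 genes of ER-associated degradation.

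As background, ATF4 is made when kinases that sense amino acid shortage, ER stress, haem shortage or viral RNA phosphorylate the initiation factor eIF2, which slows general translation and favours translation of the Atf4 message. ATF4 then drives amino acid synthesis and uptake, and its message level need not follow its protein. The ER sensors IRE1 and ATF6 act beside it, through spliced XBP1 and cleaved ATF6, and induce the chaperones, folding enzymes and degradation factors of the unfolded protein response. Secretory cells such as fibroblasts rely on this system to fold collagen and other matrix proteins.

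The series had 90 libraries in 29 groups of 2 to 4, of which 44 were muscle mesenchymal stromal cells (MmSCs) sorted from hindlimb as PDGFRa+Sca1+CD31-CD45- cells, 1000 cells to a library. WT MmSCs came from 8- to 10-week-old sedentary mice (SED), mice at day 1 after acute exercise (AEX) and, with their own SED group, trained mice (EXT). MmSCs also came from Pdgfra-Cre mice with intact Piezo1 (WT) or floxed Piezo1 (FL), at rest, at day 1 after AEX or at day 1 after cardiotoxin (CTX), a venom toxin injected into muscle to destroy its fibres. Both genotypes carry Pdgfra-Cre, so Cre is shared by the groups compared, and it acts in cells that express Pdgfra and their descendants. Other sorted MmSCs were cultured with vehicle or with 25 µM Yoda1, a small molecule agonist of the mechanically gated channel Piezo1, for 2 h (Pdgfra-Cre Piezo1 WT cells, with vehicle labelled 0 h) or for 4 h and 6 h (no genotype given, with its own vehicle). Whole tissue came from the same 2 genotypes, which the labels call WT and KO in tibialis anterior (TA) muscle at days 1, 3 and 7 after CTX. It was also taken from uninjured quadriceps, heart and liver, and from heart at day 3 after CTX of skeletal muscle. The labels do not tie replicates to separate animals, and p-values cover only the spread between these samples, which may be technical.

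MmSC libraries held between 1806248 and 10258234 counts, muscle libraries between 4051973 and 10226407, and heart and liver libraries between 27461930 and 38376123. The lowest was a library of Yoda1 at 2 h. Piezo1 itself was called in 0 of 10 comparisons of genotype (smallest adjusted p = 0.190), and reads per gene need not fall when floxed exons are lost. In MmSCs at rest Piezo1 measured 47.5 to 78.3 CPM in FL and 38.8 to 47.7 CPM in WT. FL and KO therefore stand for the label. The sorted and dissected samples carried their defining markers: stromal markers (Pdgfra, Ly6a, Dcn, Col1a1 and Col3a1) made 2.73% to 12.3% of counts in MmSC libraries, fibre markers 16.9% to 18.1% in quadriceps and cardiomyocyte markers 2.47% to 3.25% in heart. The leukocyte markers Ptprc, Cd68, Adgre1, Lyz2 and Csf1r together made at most 0.00281% of counts in any MmSC library, against 0.706 to 0.95% in injured WT TA muscle at day 3.

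Labels conflict for 4 libraries of the Pdgfra-Cre cohort at rest and after AEX, library a of each of its 4 groups. Each of the 12 count columns of that cohort bears a name that is the title of 1 sample and the library name of another. In 8 columns both samples belong to 1 group, and in those 4 they do not. Libraries were grouped by the column name. By the labels of the sample with that title instead, WT AEX a would be WT SED, FL SED a would be WT AEX, FL AEX a would be FL SED and WT SED a would be FL AEX. Results of this cohort are therefore given also without these 4 libraries and with each column in the group of the sample it titles, 2 alternatives chosen after seeing the data.

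Levels are given as CPM, a gene's counts scaled to the same library size with TMM factors within each experiment, so levels of different experiments were scaled apart. Called means an adjusted p under 0.05 from the quasi-likelihood test of edgeR, with Benjamini-Hochberg adjustment over all genes of that comparison. No share of all genes is given beside counts from DESeq2 or with no filter on low counts. Those counts therefore have no background here. Fold changes are log2 values of the first group minus the second. Where no member was called, those of smallest p are printed. Groups without overlap are likely among members so chosen and are no separate support.

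Promoter letters were searched because the members fall under 2 regulators with known elements. The RefSeq promoter table (GRCm38.p6) held 32 of the 36 genes. In the 250 bases before the start, the ATF4 element TGATGCAA stood on either strand in 6 of these 32 genes and in 0.792% of all 32817 promoters. The related TGATGNAAT, which can overlap it, stood in 2 genes and in 0.817% of promoters. The ER stress element, CCAAT and CCACG with 9 letters between, stood in another 6 genes and in 0.113% of promoters. The letters TGACGTG, known from the unfolded protein response element, stood in 1 gene, Hspa5, and in 1.649% of promoters. A match is only a description of letters.

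The stretches below are those of all 6 members in which the first element was found: the cystine importer gene Slc7a11, the regulator gene Nupr1, the effector genes Chac1 and Vldlr, the degradation gene Herpud1 and the proline enzyme gene Pycr1. Capitals mark it on either strand and, in Nupr1 and Pycr1, also the overlapping TGATGNAAT, and all run 5′ to 3′ on the gene's strand. They lie at chr3:50443643-50443689 (minus strand), chr2:119351039-119351066 (plus), chr7:126625563-126625591 (minus), chr8:94386307-94386334 (plus), chr11:120643833-120643861 (minus) and chr19:27216810-27216837 (plus).
Slc7a11: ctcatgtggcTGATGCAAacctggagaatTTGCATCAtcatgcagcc
Chac1: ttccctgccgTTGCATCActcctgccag
Nupr1: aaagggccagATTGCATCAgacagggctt
Herpud1: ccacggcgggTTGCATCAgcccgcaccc
Pycr1: gccctgtgtaTGATGCAATgcacaaggct
Vldlr: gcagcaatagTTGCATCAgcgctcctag

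The ER stress element stood in 5 chaperone genes and 1 disulfide isomerase, and capitals mark its 2 blocks, read here on either strand. In Hspa5 the capitals at the 5′ end mark TGACGTG, and Hsp90b1 has the ER stress element at 2 places. These stretches lie at chr2:34771923-34772053 (plus strand), chr10:86705523-86705666 (minus), chr15:88819510-88819548 (plus), chr8:84847065-84847103 (minus), chr14:118937817-118937855 (plus) and chr12:17266481-17266519 (plus).
Hspa5: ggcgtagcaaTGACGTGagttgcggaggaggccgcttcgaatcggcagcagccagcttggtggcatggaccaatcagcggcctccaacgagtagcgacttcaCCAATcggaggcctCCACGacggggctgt
Hsp90b1: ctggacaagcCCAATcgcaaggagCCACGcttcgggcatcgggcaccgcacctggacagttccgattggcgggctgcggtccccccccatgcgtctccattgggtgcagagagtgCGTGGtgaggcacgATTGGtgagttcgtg
Creld2: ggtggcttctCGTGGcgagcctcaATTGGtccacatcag
Calr: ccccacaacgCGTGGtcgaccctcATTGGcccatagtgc
Dnajc3: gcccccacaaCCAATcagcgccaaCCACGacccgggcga
Pdia6: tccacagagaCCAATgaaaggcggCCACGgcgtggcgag

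Together the 36 genes took the largest share of counts in MmSCs at day 1 after CTX and at 2 h of Yoda1, and the smallest in uninjured quadriceps. The share was 0.649 to 0.663% of a library's counts in WT SED MmSCs of the first AEX cohort. It was 1.97 to 2.33% in WT CTX MmSCs, against 0.695 to 0.950% in Pdgfra-Cre WT SED. At 2 h of Yoda1 it was 1.95 to 2.11%, against 1.31 to 1.54% in the vehicle of that experiment. In TA muscle it was 0.685 to 0.991% in WT at day 1 and 0.157 to 0.199% at day 7. Uninjured quadriceps WT held 0.141 to 0.161%, heart WT 0.268 to 0.297% and liver WT 0.527 to 0.677%. The share is weighted toward members with many counts, such as Hspa5, and is given without a test.

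**Figure D1:**
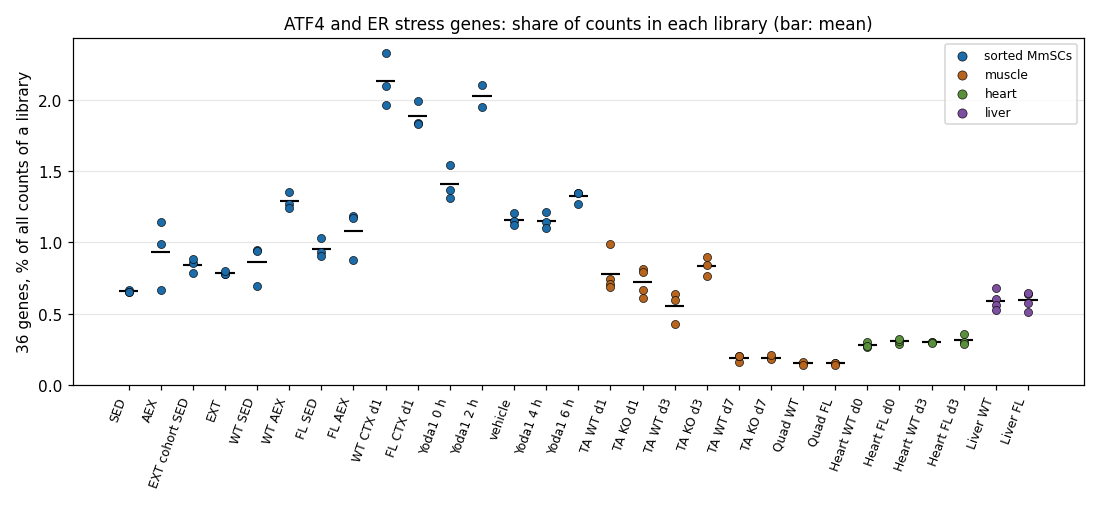
Share of all counts of a library that fell on the 36 genes, in percent (y axis), for each of the 90 libraries (points) in 29 groups (x axis), with the group mean as a bar. MmSC libraries at day 1 after CTX sit between 1.83% and 2.33%, and all quadriceps libraries between 0.141% and 0.161%.

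After acute exercise, WT MmSCs had higher mean levels of most of these genes, but 1 of the 3 exercised libraries stood near the sedentary ones and no member was called. Of 35 members tested, 32 had a positive log2 value (median 0.42, against 0.0032 over all genes). Chac1, a glutathione-degrading enzyme, was too low to test. The number called by edgeR was 0 of 35, with 0.736% of all 12777 genes called and 15 members at an unadjusted p under 0.05, against 14.9% of all genes, and DESeq2 called 7. Median log2 values were 0.99 for the 5 serine and one-carbon enzymes and 0.57 for the 10 ER chaperones.

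Shmt2, the mitochondrial enzyme that turns serine into glycine and a one-carbon unit (chromosome 10 from 127517123 to 127522444, mm10), measured 65.1, 140.4 and 101 CPM in the AEX libraries 1, 2 and 3 and 46.1, 48.1 and 52.2 CPM in SED. All exercised libraries lay above all sedentary ones, with library 1 the nearest (log2 1.06, SE 0.24, adjusted p = 0.0807). Slc3a2, the heavy chain shared by amino acid transporters, measured 158, 216 and 179 against 129, 116 and 116 CPM (log2 0.62, SE 0.15, adjusted p = 0.0842). Here too the groups did not overlap. Asns, which makes asparagine, measured 24.8, 87.7 and 80.9 against 18.2, 12.4 and 10.6 CPM, a mean difference of log2 2.22 (adjusted p = 0.104).

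AEX library 1 stood near the sedentary libraries. The members' share of counts was 0.665, 1.15 and 0.991% in AEX 1, 2 and 3 and 0.649 to 0.663% in SED, while the stromal markers made 4.04 to 4.11% in AEX and 4.78 to 4.95% in SED. Manf, a chaperone secreted under ER stress, measured 63.0, 167 and 176 CPM after AEX and 73.1, 75.5 and 88.8 CPM in SED. Psat1, which makes phosphoserine, measured 33.0, 106 and 79.8 against 21.8, 19.5 and 26.7 CPM. Without AEX library 1, 19 members were called, all higher, and 975 genes in all. Without any other library 0 members were called.

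In the cohort of Pdgfra-Cre mice, 6 of 36 members were higher in WT MmSCs after AEX, with columns grouped by their names: 4 enzymes of amino acid and one-carbon supply and 2 ER chaperones. This result rests on the grouping. Without the 4 libraries of conflicting labels 2 members were called, Asns and Shmt2, with 162 of 15004 genes called. With columns grouped by the sample they title 0 members and 0 genes were called. The share of all genes called was 0.992%, or 0.587% in the higher direction, against 6 of 36 members. Positive values were seen for 34 of 36 members (median 0.57, against -0.01 over all genes), and 28 members had an unadjusted p under 0.05, against 12.3% of all genes. By role, 3 of 5 serine and one-carbon enzymes, 1 of 3 asparagine and proline enzymes and 2 of 10 ER chaperones rose. None of the regulators, transporters, disulfide isomerases, degradation genes or other effectors was called by edgeR. Here the libraries of a group are named a, b and c.

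Asns (chromosome 6 from 7675169 to 7693254) rose from 24.8, 31.2 and 18.4 CPM in SED to 71.7, 59.97 and 88.7 CPM after AEX (log2 1.56, SE 0.27, adjusted p = 0.00877). Psat1 (chromosome 19 from 15904678 to 15947337) rose from 28.2, 42.1 and 46.0 to 105, 78.9 and 77.8 CPM (log2 1.17, SE 0.27, adjusted p = 0.0446). For Shmt2 the rise was from 50.8, 40.7 and 31.1 to 99.95, 82.6 and 90.2 CPM (log2 1.15, SE 0.20, adjusted p = 0.011). In all 3 genes the lowest exercised library lay above the highest sedentary one. Calr, calreticulin, which binds calcium and folds glycoproteins (chromosome 8 from 84841850 to 84846934), rose from 293, 407 and 519 to 831, 836 and 842 CPM (log2 1.04, SE 0.23, adjusted p = 0.0347). Manf rose from 77.3, 111 and 77.0 to 171, 155 and 212 CPM (log2 1.02, SE 0.22, adjusted p = 0.0347). Mthfd2, a mitochondrial folate enzyme, was the sixth (93.5 ± 21.8 against 51.3 ± 4.03 CPM, log2 0.86, adjusted p = 0.0418, n = 3 each).

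Without the 4 conflicting libraries Asns had log2 1.58 (adjusted p = 0.0199) and Shmt2 log2 1.27 (adjusted p = 0.0210). With columns grouped by the sample they title these were log2 0.56 (adjusted p = 0.986) and log2 0.34, and Mthfd2 was at log2 -0.058. The stromal markers made 5.50, 7.76 and 12.3% of counts in SED a, b and c and 4.04 to 5.35% in AEX, with 0 of 5 called, and their part in the result was not tested.

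Of members that did not pass, Creld2, an ER resident that assists folding, measured 206 ± 36.5 against 86.9 ± 24.6 CPM (adjusted p = 0.0584), and Trib3, a pseudokinase induced by ATF4, 15.6 ± 2.86 against 5.28 ± 3.09 CPM (adjusted p = 0.0888). The count moved with every library: without AEX c 0 members were called, without SED b 1, without AEX a, AEX b or SED c 2 each, and without SED a 5. Of all genes, 15 to 230 were called in these fits. DESeq2 called 11. Of 67 other genes of the pathway that were found, 65 were tested and 2 rose: the glycyl-tRNA synthetase Gars (log2 0.84, adjusted p = 0.0128) and the translocon subunit Sec61b (log2 0.83, adjusted p = 0.0423).

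The 2 exercise cohorts of WT mice share no library. With columns grouped by their names, of 35 members tested in both, 32 had positive values in both, while 32.5% of the 12472 genes tested in both did so. For the first cohort and Pdgfra-Cre FL the figures were 24 of 35 members and 29.2% of genes. Members may move together and were chosen with earlier results of these data known, so the count is a description only. Directions of all members under the other groupings are not given here. In the 2 WT cohorts Asns had log2 2.22 and 1.56, Psat1 1.69 and 1.17, Shmt2 1.06 and 1.15, and Manf 0.78 and 1.02. Nupr1 was among the few negative members, with log2 -0.40 and -0.31.

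In FL MmSCs, 1 of 36 members rose with AEX, the co-chaperone Dnajb11 (chromosome 16 from 22857845 to 22879634), with 0.162% of all genes called and 0.148% called higher. It went from 83.5, 47.9 and 95.3 CPM in SED to 122, 189 and 225 CPM after AEX (log2 1.24, SE 0.23, adjusted p = 0.0336), and all exercised libraries lay above all sedentary ones. The WT groups, measured in the same fit, held 123, 141 and 147 CPM in SED and 200.2, 180.0 and 184 CPM after AEX. The FL sedentary group had the lowest mean of the 4. Its call was lost when any library but AEX a was left out. It stood without the 4 conflicting libraries (log2 1.53, adjusted p = 0.0431, 33 of 15004 genes called). With columns grouped by the sample they title it was lost (log2 1.02, adjusted p = 0.794, 0 genes called). Positive values were seen for 26 of 36 members (median 0.28). Asns measured 30.2, 34.6 and 31.1 CPM at rest and 28.8, 71.0 and 57.3 CPM after AEX in FL (adjusted p = 0.472), with AEX a below every sedentary library. AEX a is among the libraries of conflicting labels and would be FL SED by the sample it titles.

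**Figure D2:**
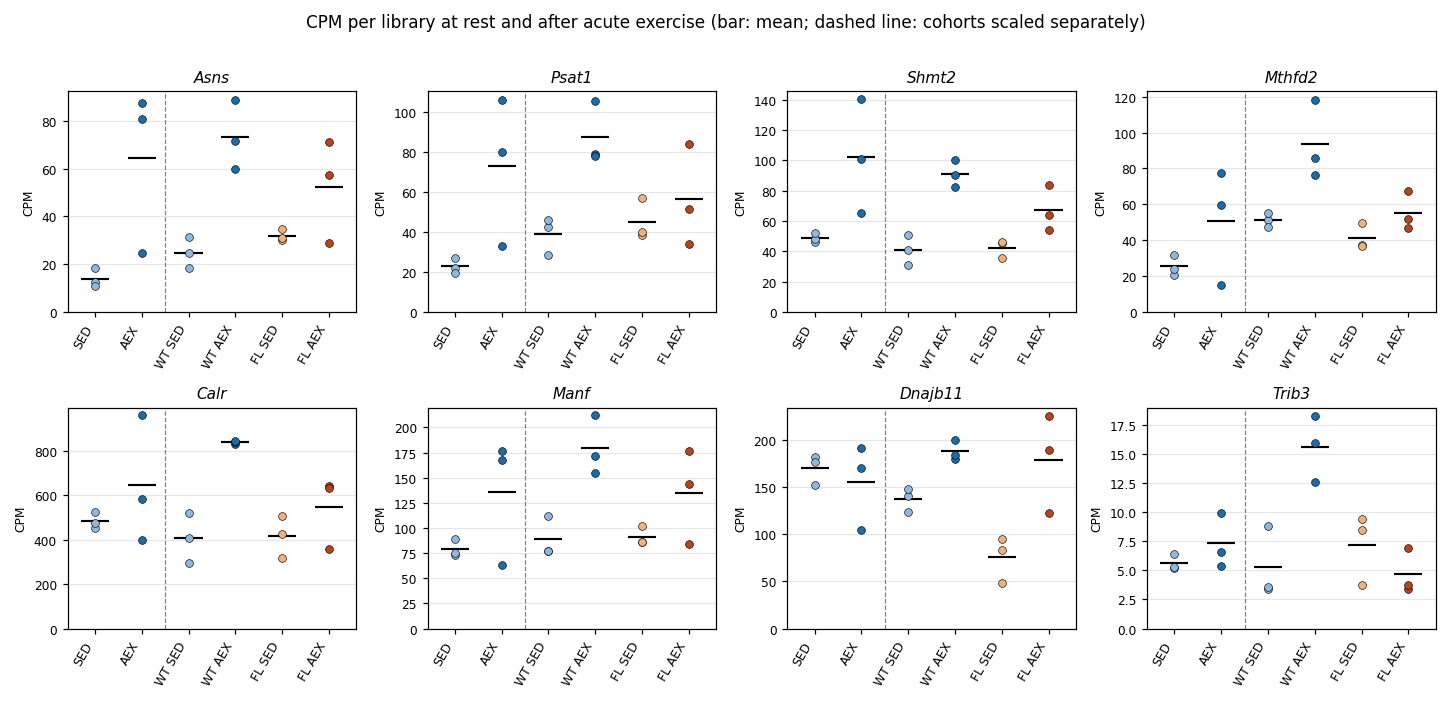
CPM (y axis, starting at 0) of 8 members in each library (points, mean as a bar) at rest and after AEX, for the WT cohort and, right of the dashed line, for the Pdgfra-Cre WT and FL cohort, which was scaled apart. Asns lay at 59.97 to 88.7 CPM in the 3 Pdgfra-Cre WT AEX libraries and at 18.4 to 31.2 CPM in their SED group, grouped by column name, and the FL AEX libraries spread from 28.8 to 71.0 CPM.

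Between genotypes after AEX, the members had mostly lower values in FL, and none was called. With columns grouped by their names, 32 of 36 members were negative (median -0.32, against -0.00073 over all genes). EdgeR called 0 members and 0% of all genes, 11 members and 5.49% of all genes had an unadjusted p under 0.05, and DESeq2 called 0 members. Trib3 measured 6.94, 3.43 and 3.74 CPM in FL AEX and 15.9, 18.3 and 12.6 CPM in WT AEX, with no overlap (log2 -1.74, SE 0.44, adjusted p = 0.849). Mthfd2 measured 46.6, 67.4 and 51.6 against 118, 76.5 and 85.9 CPM (log2 -0.76, SE 0.20, adjusted p = 0.906). In simulated data for this comparison, with 14367 genes tested, 28.3% of 99 genes changed by log2 1 were recovered. Of 99 genes changed by log2 2, 59.6% were. The simulation called 89 genes in all and the real comparison 0, so these shares need not hold for the real data. The count of members was 0 also without the 4 conflicting libraries and with columns grouped by the sample they title, and so was that of all genes. The directions of members under these groupings are not given here.

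The test of the difference in response, the interaction of genotype with AEX, gave the same count, under all 3 groupings of the libraries. EdgeR and DESeq2 called 0 of 36 members, edgeR called 0% of all genes, and 8 members and 5.96% of all genes had an unadjusted p under 0.05. With columns grouped by their names, negative interaction values, a less positive change in FL, were seen for 30 of 36 members (median -0.44). The directions under the other groupings are not given here. For Trib3 the interaction was log2 -2.20 (adjusted p = 0.737): its AEX change was log2 1.57 in WT and -0.63 in FL. For Herpud1, which recruits ER proteins for degradation, it was log2 -0.81 (adjusted p = 0.807). These comparisons share libraries with those of AEX against SED and are not separate evidence.

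Between genotypes at rest, 0 of 36 members were called by edgeR with 0.00675% of all genes called, 5 members at an unadjusted p under 0.05, against 7.38% of all genes, and 1 called by DESeq2, Dnajb11. Without the 4 conflicting libraries 1 other member was called, Ppp1r15a (log2 0.88, adjusted p = 0.0481), with 71 of 15004 genes called. With columns grouped by the sample they title 0 members and 8 of 14821 genes were called. Dnajb11 had the smallest p, with 75.6 ± 24.7 against 137 ± 12.6 CPM in FL against WT (log2 -0.86, adjusted p = 0.311). Aldh18a1, the first enzyme of proline synthesis, measured 95.3, 90.0 and 82.2 CPM in FL and 96.5, 141 and 119 CPM in WT (log2 -0.42, adjusted p = 0.555).

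After exercise training the members' values were mostly slightly negative and none was called. EdgeR called 0 of 35 members in EXT against its SED group, with 0.484% of all genes called, 7 members at an unadjusted p under 0.05, against 12.3% of all genes, and 0 called by DESeq2. Positive values were seen for 7 of 35 members (median -0.16, against -0.01 over all genes). Mthfd2 measured 26.2, 31.7 and 28.4 CPM in EXT and 39.8, 42.1 and 41.6 CPM in SED, without overlap (log2 -0.52, SE 0.14, adjusted p = 0.124). Creld2 measured 45.1, 53.9 and 44.5 against 55.9, 69.4 and 60.4 CPM, also without overlap (log2 -0.37, SE 0.13, adjusted p = 0.254). Asns was 27.8, 25.8 and 26.2 CPM in EXT and 26.97, 28.2 and 27.5 CPM in SED, with overlap. How AEX and EXT differ was not tested, since each had its own SED group.

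At day 1 after cardiotoxin, MmSCs held higher levels of most of the set than sedentary MmSCs of the same genotype. In WT 29 of 36 members rose and 3 fell, and in FL 25 rose and 3 fell. The background was high: 43.9% of all genes were called in WT (21.9% higher and 21.9% lower) and 44.6% in FL (22.5% higher and 22.2% lower). The median log2 value of members was 1.09 in WT and 0.94 in FL, against -0.14 and -0.12 over all genes. The labels do not say that CTX and SED libraries were sorted or sequenced together, so injury and a difference between runs cannot be told apart. Without the conflicting SED libraries 32 members were called in WT (30 higher and 2 lower) and 28 in FL. Of 15754 genes, 6110 and 6682 were called there. With columns grouped by the sample they title, 26 members were called in WT (24 higher and 2 lower) and 28 in FL. Of 15414 genes, 5974 and 6663 were called in that grouping.

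All 5 serine and one-carbon enzymes rose in both genotypes. Psat1 measured 28.7, 42.5 and 46.2 CPM in WT SED and 222, 237 and 239 CPM in WT CTX (log2 2.57, SE 0.24, adjusted p = 2.44e-08), and 57.5, 38.5 and 40.0 against 263, 255 and 271 CPM in FL (log2 2.54, SE 0.24, adjusted p = 2.75e-08). Every injured library was above every sedentary one by a wide margin. In FL, Shmt2 went from 45.7, 46.6 and 35.7 to 223, 197 and 182 CPM (log2 2.23, SE 0.18, adjusted p = 1.07e-09). Mthfd2 went from 50.2, 37.5 and 37.1 to 198, 198 and 189 CPM (log2 2.23, SE 0.17, adjusted p = 5.98e-10). Phgdh, which starts serine synthesis, rose by log2 1.84 in WT and 2.22 in FL, and Psph, which ends it, by 1.56 and 1.88. Asns rose by log2 2.39 and 2.21.

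Slc7a11, the cystine importer whose promoter holds the ATF4 element at 2 places (chromosome 3 from 49892526 to 50443614), measured 3.89, 3.34 and 5.32 CPM in WT SED and 34.4, 28.9 and 30.8 CPM in WT CTX (log2 2.91, SE 0.44, adjusted p = 1.55e-05). In FL it measured 4.94, 2.92 and 0.300 and 27.5, 32.5 and 32.8 CPM (log2 3.52, SE 0.46, adjusted p = 2.19e-06). The injured libraries of both genotypes lay within 27.5 to 34.4 CPM, above every sedentary library. Chac1 gave 1, 9 and 0 raw counts in the WT SED libraries and 47, 78 and 68 in WT CTX, and 9, 1 and 7 in FL SED against 38, 51 and 51 in FL CTX. Its fitted values (log2 3.97 in WT and 2.95 in FL, adjusted p = 0.00428 and 0.0185) rest on few counts at rest. With columns grouped by the sample they title Chac1 was called in neither genotype (adjusted p = 0.742 in WT and 0.142 in FL), and the FL call was lost too without FL SED b or c.

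Of the ER chaperones, 9 of 10 rose in each genotype, and all 3 disulfide isomerases did. Sdf2l1, a partner of ER chaperone complexes (chromosome 16 from 17130138 to 17132383), went from 14.5, 31.1 and 20.3 to 95.9, 184 and 135 CPM in WT (log2 2.65, SE 0.37, adjusted p = 1.98e-05). Creld2 (chromosome 15 from 88819646 to 88826683) went from 75.5, 116 and 71.6 to 367, 713 and 455 CPM (log2 2.54, SE 0.32, adjusted p = 6.38e-06). WT CTX library 2 was the highest for both. Hspa5, the ER form of Hsp70 also called BiP, rose by log2 1.64 in WT and 1.07 in FL, Hsp90b1, the ER form of Hsp90, by 1.44 and 1.01, Hyou1, a nucleotide exchange factor for Hspa5, by 1.26 and 1.57, and Pdia3, which forms disulfides in glycoproteins, by 1.81 and 1.68. Pdia4 and Pdia6 rose by log2 1.47 and 1.44 in WT. With columns grouped by the sample they title, 7 of 10 chaperones were called in WT: the calls of Hyou1 (log2 0.48, adjusted p = 0.364) and Calr (log2 0.57, adjusted p = 0.107) were lost. The chaperone not called was Dnajb11 in WT (adjusted p = 0.0755) and Dnajb9 in FL (adjusted p = 0.106).

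The same 3 members fell in both genotypes, and of these Nupr1 and Vldlr carry the ATF4 element TGATGCAA in the promoter window. Nupr1, a small stress-induced chromatin protein, measured 122, 115 and 123 CPM in WT CTX against 254, 334 and 284 CPM in WT SED (log2 -1.28), and its log2 value was -1.41 in FL. Vldlr, a lipoprotein receptor, had log2 -1.59 and -1.17, and Ppp1r15a, the phosphatase subunit GADD34 that reverses eIF2 phosphorylation, -0.56 and -1.17. The WT call of Ppp1r15a (adjusted p = 0.0124) was lost under both other groupings of the SED libraries. Atf4 itself rose in WT, from 419, 368 and 389.6 to 534, 524 and 500.2 CPM (log2 0.41, adjusted p = 0.0168), and was not called in FL (log2 0.21). Its WT call was lost without SED b and with columns grouped by the sample they title. Xbp1, the factor spliced by IRE1, was called in neither (log2 -0.25 and -0.21). Nor were Pycr1, which carries TGATGCAA too, and Trib3 (adjusted p from 0.0791 to 0.753).

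Of 66 other pathway genes tested, 38 rose and 6 fell in WT, and 34 rose and 6 fell in FL. All 13 cytosolic aminoacyl-tRNA synthetases rose in WT and 12 of 13 in FL. By size, the 2 first in WT were the secreted glycoprotein gene Stc2, which was lower (0, 0 and 0.211 CPM in CTX and 2.41, 0.23 and 1.48 CPM in SED, too few counts for a fold), and the folate enzyme Mthfd1l (log2 3.32), and in FL Mthfd1l (log2 3.15) and Shmt1 (log2 2.76). Of 5 stromal markers tested, 3 fell in WT and 1 in FL. The leukocyte markers summed to 0.000815 to 0.000938% of counts in WT CTX and 0.00125 to 0.00153% in WT SED, near 0 in both. Muscle fibre markers, 3 of 4 tested lower in WT and 4 of 4 in FL, summed to 0.000306 to 0.000452% in WT CTX and 0.0019 to 0.00223% in WT SED. Their part in the result was not tested.

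Between genotypes at day 1 after CTX, 1 of 36 members was called, with 1.79% of all genes called and 1.35% called lower. The disulfide isomerase Pdia4 (chromosome 6 from 47796141 to 47813430) measured 535, 582 and 489 CPM in FL and 637, 802 and 682 CPM in WT (log2 -0.40, SE 0.09, adjusted p = 0.0326). The groups did not overlap, and every FL library lay below every WT library. The call was lost without FL CTX 1, FL CTX 2, FL CTX 3 or WT CTX 2, and DESeq2 called 4 members, Pdia4, Manf and Hspa5 lower and Vldlr higher. Hspa5 measured 7464, 6001 and 6356 against 7536, 8910.1 and 7894 CPM (log2 -0.30, adjusted p = 0.105). The stromal markers made 2.73 to 3.20% of counts in FL CTX, below the 3.28 to 3.95% in WT CTX without overlap, and 1 of 5 was called lower, Col3a1 (12507 ± 1509 against 17566 ± 2246 CPM). The leukocyte markers made 0.00147 to 0.0017% in FL, above the 0.000815 to 0.000938% in WT without overlap but near 0 in both, and 1 of 3 tested was called higher, Lyz2 (6.02 ± 1.10 against 0.671 ± 0.739 CPM). Their part in the result was not tested. Of the other pathway genes 1 of 63 was lower in FL, Selenos of the ER degradation complex (log2 -0.42, adjusted p = 0.0186).

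**Figure D3:**
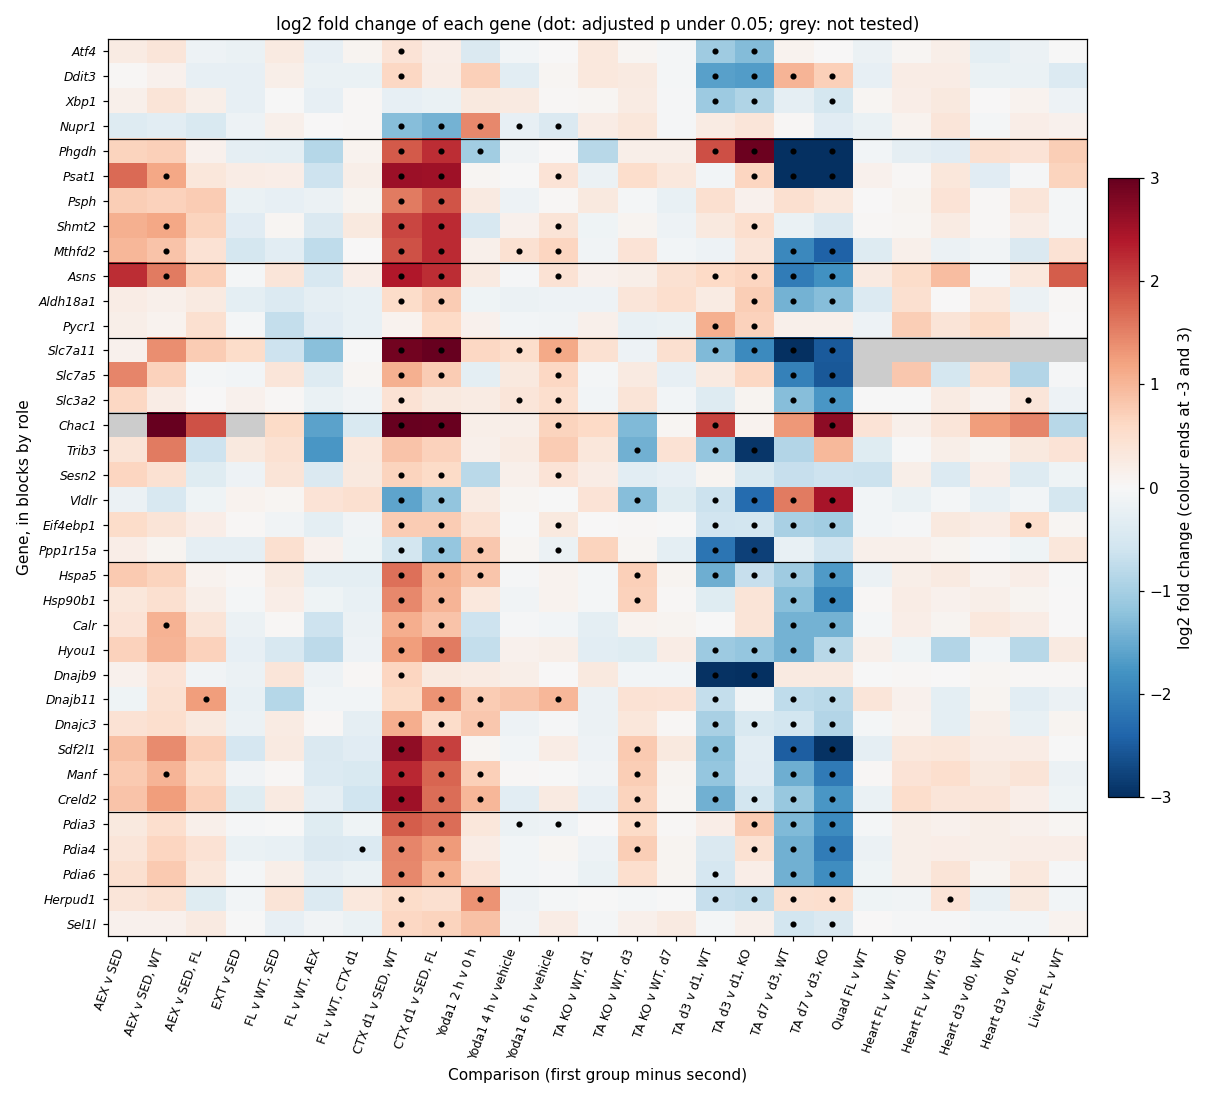
log2 fold change (colour, first group minus second, ends at -3 and 3) of the 36 genes (rows, in blocks by role) in 25 comparisons (columns), with a dot where the adjusted p was under 0.05 and grey where a gene was not tested. The 2 columns of CTX against SED in MmSCs hold 32 and 28 dots, and the columns of quadriceps, uninjured heart and liver hold none.

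With Yoda1 at 2 h, Nupr1, Herpud1, Ppp1r15a and 5 of 10 ER chaperones were higher than vehicle, with 5.3% of all genes called higher. At 6 h all 3 amino acid transporters, of which 2 were called at 4 h, and 4 of the 8 amino acid and one-carbon enzymes were higher than their vehicle, with 6.53% of all genes called higher. The 2 h and the later libraries are separate experiments with their own vehicle. The sources used here do not give the time that vehicle cells were kept, so Yoda1 and time in culture cannot be told apart. In all, 8 of 36 members were higher and 1 lower than vehicle at 2 h, with 11.2% of all genes called (5.94% lower), and none of the 3 transporters was called by edgeR. There were 2 libraries at 2 h.

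Nupr1 (chromosome 7 from 126623249 to 126630861) measured 872 and 819.5 CPM at 2 h and 250.2, 346 and 333 CPM in vehicle (log2 1.45, SE 0.16, adjusted p = 0.000891). Herpud1 (chromosome 8 from 94386438 to 94395377) measured 758 and 699 against 251, 319 and 287 CPM (log2 1.35, SE 0.15, adjusted p = 0.000795). In both genes the treated libraries lay far above all vehicle libraries. Both carry TGATGCAA in the promoter window, but the other carriers, Slc7a11, Chac1, Vldlr and Pycr1, were not called at 2 h. Creld2 measured 183 and 170.3 against 72.9, 97.7 and 97.4 CPM (log2 0.98, SE 0.19, adjusted p = 0.0081), and Hspa5 8711 and 7159.9 against 3960.3, 5191 and 4128 CPM (log2 0.84, SE 0.15, adjusted p = 0.00676). Phgdh was the 1 member that fell, at 32.1 and 41.5 against 80.9, 73.9 and 72.2 CPM (log2 -1.05, SE 0.23, adjusted p = 0.0158).

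Dnajc3, a co-chaperone that also restrains eIF2 kinases, Ppp1r15a, Dnajb11 and Manf rose by log2 0.81, 0.81, 0.76 and 0.72 (adjusted p 0.00625 to 0.018). Atf4 measured 495 and 374 CPM at 2 h and 591, 614 and 553 CPM in vehicle and was not called (adjusted p = 0.104). The count moved with single libraries: 3 members were called without vehicle 1 (with 272 of 11844 genes called) or vehicle 3 (334 of 11834), and 8 without vehicle 2 (690 of 11985). There were 13 without treated library 1 (3047 of 14170 genes) and 15 without treated library 2 (2962 of 14035), the shallowest of all at 1806248 counts. The 1 chaperone called was Dnajc3 without vehicle 1 and Creld2 without vehicle 3. The calls of Nupr1 and Herpud1 were kept throughout, and that of Phgdh was lost without any 1 vehicle library. Where 1 treated library is left, it is assumed to vary like the vehicle group. Of 63 other pathway genes tested, 7 rose and 7 fell, first by size the valyl-tRNA synthetase Vars (log2 -1.96) and Atf6b (log2 -1.75), both lower. Of 5 stromal markers tested at 2 h, 1 was higher and 2 lower, with a sum of 4.65 to 4.75% of counts against 5.26 to 5.36% in vehicle, and their part was not tested.

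At 4 h, 3 members were higher and 2 lower than their vehicle, with 5.71% of all genes called (3.58% higher and 2.12% lower). Slc7a11 measured 81.2, 75.1 and 91.9 CPM at 4 h and 55.3, 63.8 and 53.7 CPM in vehicle (log2 0.52, SE 0.10, adjusted p = 0.000539). Mthfd2 measured 115, 105 and 91.9 against 75.1, 77.8 and 74.8 CPM (log2 0.46, SE 0.09, adjusted p = 0.000676), and Slc3a2 832, 816 and 793 against 595, 639 and 663 CPM (log2 0.36, SE 0.05, adjusted p = 2.21e-05). Slc3a2 and Slc7a11 encode the 2 chains of the cystine-glutamate exchanger, and for both every treated library exceeded every vehicle library. Nupr1 was lower, at 158, 158 and 160.2 against 181, 178 and 203 CPM (log2 -0.24, SE 0.07, adjusted p = 0.0375), and so was Pdia3, at 896, 923 and 887 against 1039, 979 and 1045 CPM (log2 -0.18, SE 0.05, adjusted p = 0.0193). The 2 falls were small and were lost in some fits without 1 library: 0 members were called lower without Yoda1 4 h 3, vehicle 1 or vehicle 3. Of 62 other pathway genes 6 rose, led by the mTORC1 inhibitor gene Ddit4 (log2 0.76) and the ER oxidoreductase gene Txndc5 (log2 0.72). No stromal marker of 5 was called at 4 h by edgeR.

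At 6 h, 11 members were higher and 3 lower, with 13.2% of all genes called (6.53% higher and 6.72% lower). All 3 transporters, 3 of 5 serine and one-carbon enzymes and 3 of 6 other effectors rose, and 1 of 10 chaperones. Slc7a11 measured 125, 138 and 119.6 CPM against the same vehicle libraries (log2 1.14, SE 0.09, adjusted p = 4.74e-11), above all libraries at 4 h. Dnajb11 measured 187, 188 and 195 against 87.9, 69.9 and 127 CPM (log2 1.00, SE 0.21, adjusted p = 0.0232), with vehicle spread widely. Mthfd2 measured 117, 115 and 125 CPM (log2 0.65, SE 0.09, adjusted p = 9.32e-07). Slc7a5, the light chain that imports leucine and other large neutral amino acids, measured 18.0, 14.4 and 13.8 against 9.95, 9.66 and 10.3 CPM (log2 0.63, SE 0.21, adjusted p = 0.0405). Chac1 measured 24.2, 17.4 and 22.2 against 17.5, 10.4 and 12.6 CPM, with 1 treated library inside the range of vehicle (log2 0.66, SE 0.20, adjusted p = 0.0192).

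Also higher at 6 h were Slc3a2 (log2 0.51), Asns (0.44), Sesn2, a leucine sensor that restrains mTORC1 (0.42), Psat1 (0.41), Shmt2 (0.38) and Eif4ebp1, a translation repressor (0.28). Nupr1 (log2 -0.42), Ppp1r15a (-0.17) and Pdia3 (-0.14) were lower. Nupr1 and Ppp1r15a were thus called in opposite directions at 2 h and 6 h, in experiments with different vehicles, and the difference between the experiments was not tested. With Dnajb11, which was higher at each time, they were the 3 members called at 2 h and also at 6 h. These made 33.3% of the 9 at 2 h and 21.4% of the 14 at 6 h. The overlap over all genes is not given here, so nothing is read from these shares. The count at 6 h was 8 without Yoda1 6 h 1, Yoda1 6 h 3 or vehicle 1, and 8 with no filter on low counts. Of 62 other pathway genes 15 rose and 5 fell, and 8 of 13 aminoacyl-tRNA synthetases were among those that rose. Ddit4 (log2 1.24) and Vars (log2 1.17) led by size. With 1 of the 6 libraries left out in turn, the call of Slc7a5 was lost 6 times and those of Dnajb11 and Chac1 4 times each, while those of Slc7a11, Mthfd2, Slc3a2, Asns, Psat1, Eif4ebp1 and Nupr1 were kept throughout. Of 5 stromal markers 4 were lower at 6 h, and their sum was 7.63 to 7.86% of counts at 6 h, 9.11 to 9.84% at 4 h and 9.83 to 10.4% in vehicle. Their part in the result was not tested.

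From 4 h to 6 h, 7 members rose and 1 fell, with 10.9% of all genes called (5.25% higher and 5.7% lower). These values share libraries with the 2 comparisons above. Slc7a11 (0.62), Asns (0.47), Psat1 (0.43), Ddit3 (0.39) and Sel1l (0.34) had the largest log2 values. Ddit3, the proapoptotic factor CHOP, measured 54.5, 46.6 and 45.6 CPM at 4 h and 71.1, 56.2 and 65.7 CPM at 6 h, and 62.0, 56.2 and 66.1 CPM in vehicle, so that 6 h was near vehicle. Asns measured 67.6, 71.2 and 68.1 CPM at 4 h, close to vehicle (69.4 to 71.1 CPM), and 88.7, 106 and 91.3 CPM at 6 h. Psat1 measured 167, 183 and 179 CPM at 4 h and 239, 221 and 250.1 CPM at 6 h. Sel1l, an adaptor of the ER ubiquitin ligase, measured 155, 147 and 134 and 179, 166 and 209 CPM. The first by size of the 12 other pathway genes that rose was Derl3 (log2 1.34), and Atf3 fell (log2 -0.60).

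**Figure D4:**
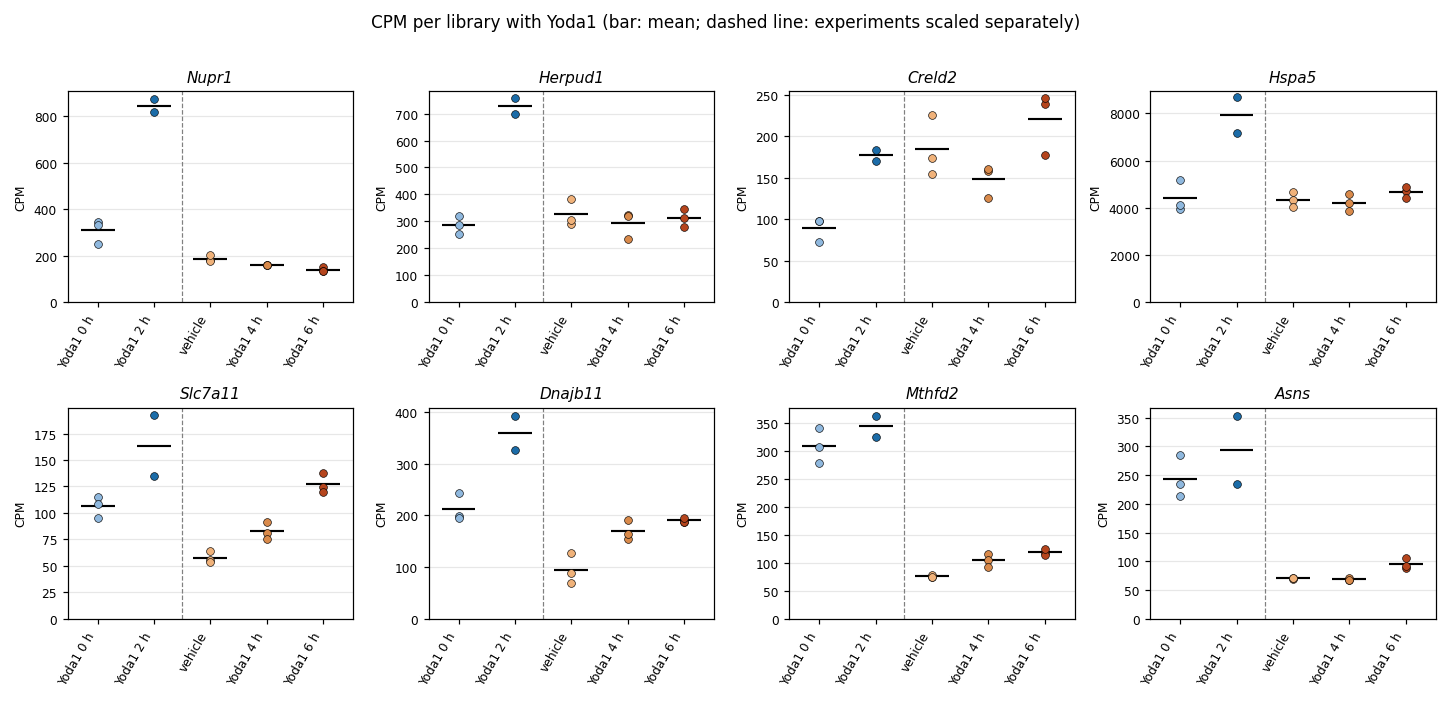
CPM (y axis, starting at 0) of 8 members in each library (points, mean as a bar) in vehicle labelled 0 h and Yoda1 at 2 h and, right of the dashed line, in the other vehicle group and Yoda1 at 4 h and 6 h, scaled apart. Nupr1 measured 872 and 819.5 CPM at 2 h, above its vehicle, while at 6 h its libraries lay at 133 to 150.4 CPM, below theirs.

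In TA muscle regenerating after CTX, more members were called between days than between genotypes. In bulk tissue fewer cells of a type and less RNA per cell cannot be told apart. From day 1 to day 3 in WT, 4 of 36 members rose and 18 fell (26.8% of all genes called, 14.1% higher and 12.6% lower). In KO 8 rose and 14 fell (44.6% called, 22% higher and 22.6% lower). Of 10 chaperones 8 fell in WT and 5 in KO, and 3 of 4 regulators fell in each.

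Dnajb9, a co-chaperone of Hspa5 (chromosome 12 from 44205559 to 44210326), measured 259, 293, 283 and 301 CPM in WT at day 1 and 34.2, 38.3 and 36.7 CPM at day 3 (log2 -2.96, SE 0.18, adjusted p = 3.15e-11). In KO it measured 364, 439.6, 328 and 264 and 22.1, 39.4 and 40.3 CPM (log2 -3.35, SE 0.19, adjusted p = 3.80e-12). Its fall was the largest among called members in both genotypes. Ppp1r15a (chromosome 7 from 45522916 to 45526268) went from 66.9, 93.6, 139.5 and 124 to 24.2, 26.5 and 18.9 CPM in WT (log2 -2.19, SE 0.24, adjusted p = 2.79e-07) and from 207, 185, 158 and 121 to 16.9, 26.5 and 28.2 CPM in KO (log2 -2.80, SE 0.24, adjusted p = 3.27e-09). Ddit3 (chromosome 10 from 127290774 to 127296288) went from 26.4, 35.8, 36.5 and 41.8 to 10.6, 11.3 and 12.4 CPM in WT (log2 -1.62, SE 0.23, adjusted p = 9.46e-06). Atf4 was lower too, with log2 -1.06 in WT and -1.31 in KO, as were Xbp1, with -1.08 and -0.90, and Hyou1, with -1.10 and -1.16.

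Of the 8 amino acid and one-carbon enzymes, 3 rose in WT (Phgdh, Pycr1 and Asns) and 6 in KO, and none was called lower. The WT call of Asns (log2 0.60, adjusted p = 0.049952) was lost without any 1 library other than WT day 3 library 3, and of the KO calls those of Phgdh and Aldh18a1 were kept with any 1 library left out. Phgdh (chromosome 3 from 98313170 to 98339990) measured 13.8, 17.8, 18.9 and 17.5 CPM in WT at day 1 and 81.9, 73.1 and 40.0 CPM at day 3 (log2 1.93, SE 0.23, adjusted p = 7.64e-07). In KO it measured 12.9, 8.77, 8.41 and 7.89 and 76.9, 57.0 and 85.8 CPM (log2 2.94, SE 0.24, adjusted p = 1.02e-09). No library of day 3 came near those of day 1. Pycr1, which makes proline, rose by log2 1.06 and 0.68. Chac1 rose in WT, from 3.67, 2.84, 1.70 and 4.37 to 14.5, 13.3 and 11.1 CPM (log2 2.04, SE 0.57, adjusted p = 0.012), and in KO measured 1.21, 7.95 and 5.44 CPM at day 3 (adjusted p = 0.894).

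In KO, Trib3 fell from 11.2, 9.64, 7.36 and 7.40 to 1.55, 0.54 and 1.55 CPM (log2 -2.92, SE 0.38, adjusted p = 1.23e-06), and Vldlr from 109, 132, 149 and 189.9 to 15.5, 31.7 and 38.6 CPM (log2 -2.32, SE 0.25, adjusted p = 1.00e-07). Both were lower in WT too, with log2 -1.15 and -0.64, but there the calls were lost without WT day 3 library 1 or 3, and that of Vldlr also without 4 other libraries. Of 63 other pathway genes tested, 5 rose and 16 fell in WT, and 14 rose and 19 fell in KO. First by size were Fgf21, a stress hormone (1.69, 2.79 and 3.50 CPM at day 3 and 0.489, 0, 0.131 and 0 CPM at day 1 in WT, too few counts for a fold), the amino acid transporter Slc38a2 in WT (log2 -1.85) and Atf5 in KO (log2 -2.49).

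From day 3 to day 7 most of the set fell: 22 members fell and 3 rose in WT (42.5% of all genes called, 20.1% higher and 22.4% lower), and 23 fell and 4 rose in KO (52.7% called, 25.8% higher and 27% lower). All 3 transporters, all 3 disulfide isomerases and 9 of 10 chaperones fell in each genotype. The medians were log2 -1.02 in WT and -0.96 in KO, against -0.03 and -0.02 over all genes.

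Psat1 measured 158, 145 and 89.4 CPM in WT at day 3 and 5.78, 14.9 and 19.2 CPM at day 7 (log2 -3.29, SE 0.28, adjusted p = 5.79e-09), and 212, 186 and 172 against 17.8, 13.9 and 18.2 CPM in KO (log2 -3.51, SE 0.27, adjusted p = 6.41e-10). Phgdh fell to 4.25, 8.75 and 7.52 CPM in WT (log2 -3.24, SE 0.28, adjusted p = 4.45e-09) and 8.20, 7.21 and 8.09 CPM in KO (log2 -3.22, SE 0.27, adjusted p = 1.13e-09). Its levels at day 7 were below all libraries of day 3. Sdf2l1 measured 59.0, 52.5 and 42.6 and 8.17, 9.06 and 10.4 CPM in WT (log2 -2.47, SE 0.23, adjusted p = 1.72e-08) and 89.3, 88.7 and 86.7 and 15.2, 11.2 and 7.94 CPM in KO (log2 -2.96, SE 0.23, adjusted p = 3.92e-10). Asns fell from 41.4, 40.7 and 23.5 to 5.44, 6.91 and 12.1 CPM in WT (log2 -2.10, SE 0.27, adjusted p = 8.95e-07).

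Slc7a11 was lower at day 7 than at day 3, at 3.01, 2.89 and 5.71 and 0.68, 0.307 and 0.307 CPM in WT (log2 -3.13, SE 0.61, adjusted p = 0.000193). In KO, Slc7a5 fell from 7.77, 6.02 and 9.91 to 2.27, 1.54 and 0.294 CPM (log2 -2.55, SE 0.48, adjusted p = 9.45e-05). Chac1 rose in KO, from 1.21, 7.95 and 5.44 to 11.7, 74.3 and 14.4 CPM (log2 2.69, SE 0.59, adjusted p = 0.000753), where library 2 of day 7 stood far above the other two, and without it the value was log2 1.34 (adjusted p = 0.0122). Vldlr, Herpud1 and Ddit3 also rose, by log2 1.57, 0.48 and 1.02 in WT and 2.46, 0.51 and 0.70 in KO, and the WT call of Herpud1 was lost without any 1 of its 6 libraries. Of 63 other pathway genes, 28 fell and 3 rose in WT and 30 fell and 7 rose in KO. First by size were Mthfd1l (log2 -3.33 in WT and -3.29 in KO), Edem1 in WT (log2 -1.49) and Fgf21, of few counts, in KO.

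The cell mixture moved over the same days. In WT, muscle fibre markers (Acta1, Ckm, Mylpf, Tnnt3 and Myh4) made 8.10 to 9.58% of counts at day 1, 4.09 to 6.40% at day 3 and 14.3 to 15.4% at day 7. The leukocyte markers made 0.253 to 0.413%, 0.706 to 0.95% and 0.0562 to 0.107%. From day 3 to day 7, 5 of 5 fibre markers rose and 5 of 5 leukocyte markers fell in each genotype. From day 1 to day 3 in WT, 5 of 5 leukocyte and 4 of 4 satellite cell and myoblast markers rose, while 4 of 5 fibre, 4 of 4 endothelial and 3 of 4 neutrophil markers fell. Their part in the results was not tested.

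Between genotypes in TA muscle, 9 members were called at day 3, 7 higher and 2 lower in KO. Of all genes tested at day 3, 8.98% were called, 2.61% higher and 6.37% lower. Those higher were 5 of 10 chaperones and 2 of 3 disulfide isomerases, and no amino acid enzyme or transporter was called. Sdf2l1 measured 89.3, 88.7 and 86.7 CPM in KO and 59.0, 52.5 and 42.6 CPM in WT (log2 0.78, SE 0.20, adjusted p = 0.0171). Pdia4 measured 265, 296 and 204 against 169, 155 and 134 CPM (log2 0.74, SE 0.19, adjusted p = 0.0142), and Manf 92.2, 136 and 84.0 against 73.3, 66.9 and 47.0 CPM (log2 0.74, SE 0.18, adjusted p = 0.013). In these 3 genes WT library 3 was the lowest of all and no library of the groups overlapped. The 2 lower members were Trib3, at 1.55, 0.54 and 1.55 against 3.01, 4.24 and 2.21 CPM (log2 -1.44, SE 0.40, adjusted p = 0.0255), and Vldlr, at 15.5, 31.7 and 38.6 against 77.5, 72.2 and 59.7 CPM (log2 -1.27, SE 0.25, adjusted p = 0.00248).

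Hspa5, Hsp90b1, Creld2 and Pdia3 were higher by log2 0.72, 0.69, 0.66 and 0.59. The calls leaned on 2 libraries: without WT 3 no member was called higher and 2 were called lower (431 of 16050 genes called), and without KO 2 there were 1 of each (698 of 15916 genes). Fibre markers were lower in KO at day 3, 5 of 5 called, with a sum of 0.581 to 1.91% of counts against 4.09 to 6.40% in WT, where library 3 held the most. Leukocyte markers summed to 0.952 to 1.14% against 0.706 to 0.95%, with 0 of 5 called. Their part in the result was not tested. Of 63 other pathway genes 4 were higher, led by Gdf15, a stress cytokine whose groups overlapped (log2 2.21), and the translocon gene Ssr1 (log2 1.06).

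At day 1 edgeR called 0 of 36 members and 0.0774% of all genes, with 3 members at an unadjusted p under 0.05, against 5.76% of all genes, and 0 called by DESeq2. Phgdh measured 12.9, 8.77, 8.41 and 7.89 CPM in KO and 13.8, 17.8, 18.9 and 17.5 CPM in WT, without overlap (log2 -0.84, SE 0.23, adjusted p = 0.315). Ppp1r15a measured 207, 185, 158 and 121 against 66.9, 93.6, 139.5 and 124 CPM, with overlap (log2 0.66, SE 0.20, adjusted p = 0.493). At day 7 edgeR called 0 of 36 and 0% of all genes, with 1 member at an unadjusted p under 0.05, against 4.76% of all genes, and 0 called by DESeq2. That member was Aldh18a1, at 35.2, 25.2 and 31.6 CPM in KO and 20.6, 19.8 and 24.9 CPM in WT (log2 0.50, SE 0.17, adjusted p = 1.00). Whether the genotype difference changed from day to day was not tested.

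**Figure D5:**
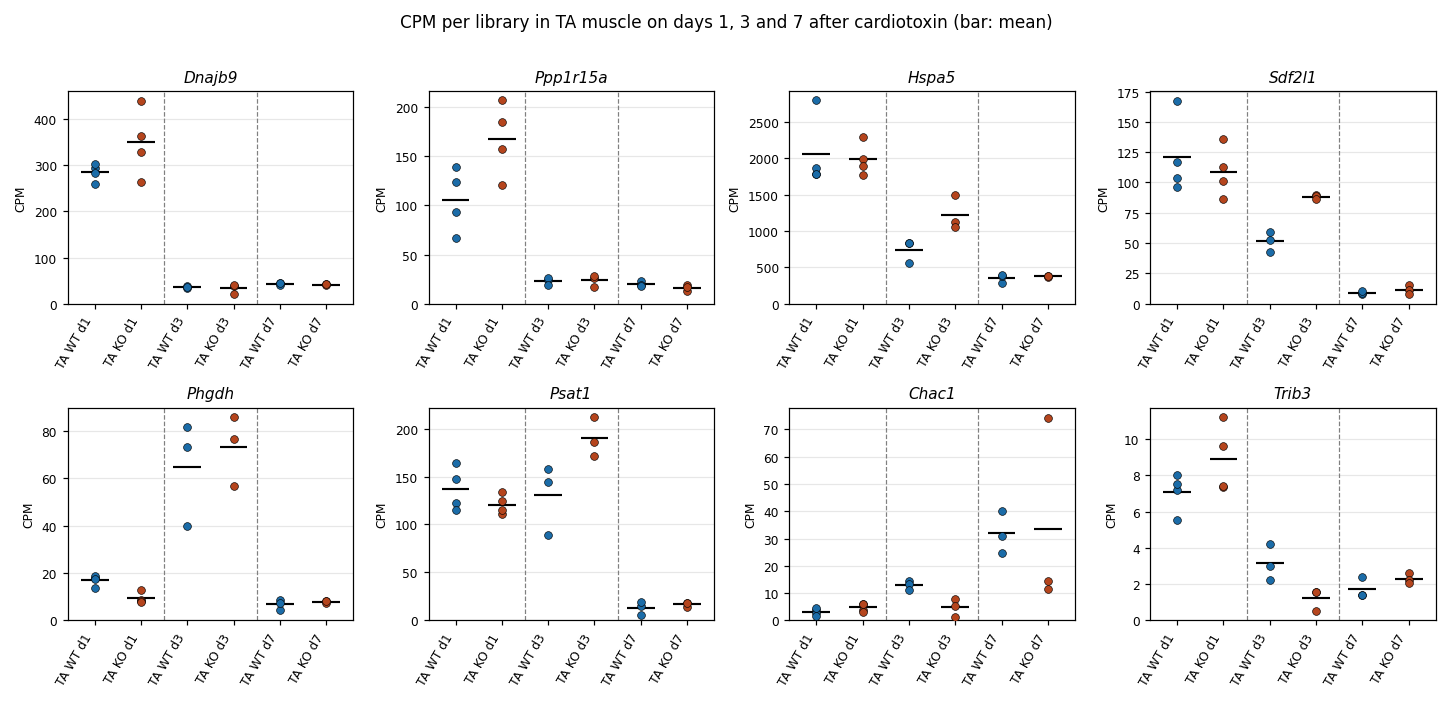
CPM (y axis, starting at 0) of 8 members in each TA library (points, mean as a bar) of WT and KO at days 1, 3 and 7 after CTX. Dnajb9 lay at 259 to 301 CPM in WT at day 1 and 34.2 to 38.3 CPM at day 3, while Phgdh was highest at day 3, with 40.0 to 81.9 CPM in WT.

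In uninjured quadriceps no member was called between genotypes. EdgeR called 0 of 34 members and 0% of all genes, with 2 members at an unadjusted p under 0.05, against 6.5% of all genes, and 0 called by DESeq2. Slc7a11 and Slc7a5 were too low to test. Hspa5 measured 206, 201 and 215 CPM in FL and 248, 249 and 211 CPM in WT with overlap (log2 -0.19, SE 0.07, adjusted p = 0.758), and Aldh18a1 7.58, 8.80 and 8.90 against 13.4, 8.998 and 11.3 CPM (log2 -0.41, SE 0.19, adjusted p = 0.758). Psat1 stayed at 2.61 to 3.60 CPM in WT, a tissue scaled apart from TA.

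In heart, where the injury was to skeletal muscle, few members were called. Each heart group had 3 libraries, numbered 1 to 3 in FL day 3 and 2 to 4 in the others. Between genotypes in uninjured heart edgeR called 0 of 35 and 0% of all genes, with 2 members at an unadjusted p under 0.05, against 4.22% of all genes, and 0 called by DESeq2. Creld2 measured 29.7, 31.3 and 35.1 CPM in FL and 26.2, 19.8 and 21.1 CPM in WT (log2 0.52, SE 0.16, adjusted p = 1.000), and Aldh18a1 18.0, 17.3 and 21.3 against 11.6, 16.5 and 12.2 CPM (log2 0.48, SE 0.17, adjusted p = 1.000). In WT heart, day 3 against day 0 also gave 0 of 35 called by edgeR, with 0.103% of all genes called, 5 members at an unadjusted p under 0.05, against 5.37% of all genes, and 0 called by DESeq2. Calr measured 193, 178 and 190.5 CPM at day 3 and 153, 157 and 138 CPM at day 0 (log2 0.32, SE 0.10, adjusted p = 0.551), and Eif4ebp1 104, 102 and 100.3 against 88.2, 92.4 and 83.3 CPM (log2 0.21, SE 0.08, adjusted p = 0.824). Both pairs of groups were separate but not called.

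In FL heart 2 of 35 members rose by day 3, with 4.75% of all genes called and 2.05% called higher. Eif4ebp1 (chromosome 8 from 27260329 to 27276674) measured 132, 123 and 118 CPM at day 3 and 86.5, 87.7 and 84.1 CPM at day 0 (log2 0.53, SE 0.09, adjusted p = 0.00805). Slc3a2 (chromosome 19 from 8706882 to 8723369) measured 85.0, 73.4 and 77.7 against 59.3, 61.9 and 62.1 CPM (log2 0.36, SE 0.10, adjusted p = 0.0471). All day 3 libraries lay above all day 0 libraries for each. The call of Slc3a2 was lost with RLE scaling, with no filter on low counts and without any 1 library other than FL day 3 library 2, while that of Eif4ebp1 was kept in each of these fits. Between genotypes at day 3, 1 of 35 members was called, with 3.92% of all genes called and 1.58% called higher: Herpud1, at 186, 149 and 180.0 CPM in FL and 126, 138 and 121 CPM in WT (log2 0.42, SE 0.11, adjusted p = 0.0488). With RLE scaling it was not called, and with 1 library left out it was kept only without FL day 3 library 2.

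The FL day 3 heart libraries detected 21567 to 22077 genes with at least 1 count, below the other 3 heart groups (23656 to 25046 in WT day 0), and the part of this in the result was not tested. Without FL day 0 library 2 or 3, or FL day 3 library 3, 1 member was called in FL day 3 against day 0. There were 3 without FL day 0 library 4 (2 higher and 1 lower) or FL day 3 library 1 (1 higher and 2 lower). Without FL day 3 library 2 the count was 4, all higher. Between genotypes at day 3 the count was 0 without FL day 3 library 3 or WT day 3 library 2, 3 or 4. Without FL day 3 library 1 it was 2, Dnajb11 (log2 -0.50) and Hyou1 (log2 -1.11), both lower. Without FL day 3 library 2 it was 3, Herpud1, Manf and Pdia6, all higher. The genes called and their direction thus changed with single libraries. Over these fits 74 to 1462 genes were called in FL day 3 against day 0 and 24 to 1369 between genotypes. DESeq2 called 3 there, adding Eif4ebp1 and, lower, Hyou1, and 4 in FL day 3 against day 0, adding Chac1 and, lower, Hyou1. Of 64 other pathway genes, Atf6, the ER stress sensor, fell in FL (log2 -0.55, adjusted p = 0.0193).

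In uninjured liver edgeR called 0 of 35 members and 0% of all genes, with 1 member at an unadjusted p under 0.05, against 3.61% of all genes, and 0 called by DESeq2. Asns measured 2.82, 10.6, 9.66 and 7.78 CPM in FL and 1.76, 2.39, 4.03 and 0.552 CPM in WT (log2 1.81, SE 0.53, adjusted p = 0.999). In 3 of 4 FL libraries it lay above all WT libraries and in 1 within their range. Ddit3 measured 8.92, 9.63, 8.06 and 6.68 against 11.4, 10.8, 12.3 and 9.84 CPM (log2 -0.42, SE 0.19, adjusted p = 0.999), without overlap. The hepatocyte markers Alb, Apoa1, Ttr, Serpina1c and Fgb made 7.46 to 11.7% of counts in FL and 8.78 to 10.5% in WT.

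Several members have exons that overlap another gene, and since the sources used here do not give the use of strand in counting, reads of the partners cannot be told apart. In GENCODE M21 these are Ddit3 (with Mars and Gm4189), Psph (Cct6a), Shmt2 (Ndufa4l2), Ppp1r15a (Tulp2), Hsp90b1 (Gm15344, Gm25745 and 1810014B01Rik), Dnajb9 (Mir5627), Manf (Rbm15b, Dcaf1 and 4930524O07Rik), Pdia3 (Catsper2), Pdia4 (Mir704) and Pdia6 (Atp6v1c2). Values of these members are uncertain to that extent.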

How the data were processed

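RNA-seq was made from 1000 sorted MmSCs or 2 ng of tissue RNA per library, per the labels' protocols. The authors deposited 1 table of raw counts per gene for the 90 libraries. Per the submitters' processing notes, STAR 2.7.3a, featureCounts and mm10 were used, and the sources used here do not give the annotation or the use of strand.

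Counts were tested with edgeR 4.0.16 (quasi-likelihood, robust, TMM scaling, filterByExpr with a minimum count of 10) in R 4.3.3, within each experiment and with a Benjamini-Hochberg threshold of 0.05 over all genes. The alternatives were DESeq2 1.42.0, scaling by RLE, testing of all genes with counts, fits without each library, a block by replicate number, and 2 other groupings of the cohort with conflicting labels. The 2 groupings were chosen after seeing the data. For 78 libraries the column name gave the sample, and for 12 only the group, so their letters a, b and c are names. Replicates of 1 group differed by at least 2.75 in chi-square per gene over 97 pairs, so none was counted as a repeat. The edgeR code was tested on simulated data. There, 21 of 160 calls were false for AEX in WT MmSCs and 10 of 113 for AEX in Pdgfra-Cre WT, shares above 0.05. For FL against WT after AEX 2 of 89 were false, and for CTX against SED in WT 6 of 116. For Yoda1 it was 2 of 66 at 2 h and 11 of 168 at 4 h. For KO against WT in TA at day 3 it was 2 of 120. For FL against WT it was 3 of 118 in heart at day 3 and 9 of 123 in liver.

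The members and lists were chosen with earlier results of these data known. Values in every library are printed for up to 5 called members of a comparison with the largest absolute fold, or for the 2 of smallest p where none was called, and other members were chosen after their values were seen. Of pathway genes, up to 2 called are named by fold. Gene positions are from GENCODE M21 (GRCm38), which held 52936 of the 55011 symbols. Promoters are from RefSeq.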

Additional observations from a re-analysis of the deposited data

How the results depend on the processing

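Of 212 calls of members, 212 were made by DESeq2 too, 210 with RLE scaling and 204 with no filter on low counts, all in the same direction. With 1 library left out calls were kept 1105 times and lost 202 times, and none reversed. Of the 67 calls that use the Pdgfra-Cre libraries at rest or after AEX, 61 stood without the 4 libraries of conflicting labels. With columns grouped by the sample they title, 52 stood, 14 were lost and 1 reversed, Mthfd2 after AEX in WT (log2 -0.058). These 2 groupings were chosen after seeing the data.

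Counts of members called moved as follows. For DESeq2, RLE scaling and no filter the share of all genes called is not given here. Those counts therefore have no background to be read against. AEX against SED in WT MmSCs gave 7 with DESeq2 and 11 with no filter. In Pdgfra-Cre WT MmSCs it gave 11 with DESeq2, 14 with no filter, 2 without the conflicting libraries and 0 grouped by title, and in FL 0 grouped by title. FL against WT at rest gave 1 with DESeq2, 1 with no filter and 1 without the conflicting libraries, and after AEX 1 with no filter. At day 1 after CTX it gave 4 with DESeq2 and 7 with no filter. With no filter, Yoda1 gave 8 at 4 h and 8 at 6 h, TA day 1 gave 2 and WT heart day 3 against day 0 gave 1. For heart at day 3, FL against WT gave 0 with RLE scaling, 3 with DESeq2 and 2 with no filter, and FL day 3 against day 0 gave 1 with RLE scaling and 4 with DESeq2. Without a filter the median log2 of all genes at 2 h of Yoda1 was -0.13 against -0.03. The causes were not tested.

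With 1 library left out, the counts ran from 0 to 19 for AEX in WT MmSCs, 0 to 5 for AEX in Pdgfra-Cre WT and 0 to 1 in FL. They ran from 0 to 3 for FL against WT after CTX, 28 to 32 for CTX against SED in WT and 25 to 28 in FL. For Yoda1 they ran from 3 to 15 at 2 h, 3 to 6 at 4 h, 8 to 11 at 6 h and 6 to 9 for 6 h against 4 h. In TA they ran from 2 to 10 for KO against WT at day 3, 17 to 20 for day 3 against day 1 in WT and 18 to 23 in KO, and 24 to 27 for day 7 against day 3 in WT and 25 to 28 in KO. In heart they ran from 0 to 3 for FL against WT at day 3 and 1 to 4 for FL day 3 against day 0. In the other 10 comparisons they stayed at 0.

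Replicate numbers were not used as pairs in the main fits: in no experiment was every correlation of same-numbered samples' deviations above 0.1. With so few libraries in a group, that rule cannot exclude pairing. In liver the median correlation was 0.246 for same-numbered samples and -0.239 for other pairs. With the replicate block, Yoda1 at 2 h gave 3 members (Nupr1, Herpud1 and Creld2). Heart at day 3, FL against WT, gave 2, Dnajb11 and Hyou1, both lower, and the call of Herpud1 there was lost. In all, 128 calls were kept and 17 lost. No paired analysis was possible for the Pdgfra-Cre libraries at rest and after AEX, or CTX against SED, because their columns carry no usable number. Depth limits Chac1, Slc7a11 and Trib3 in particular, which had few counts in several groups.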
